A study of Mus musculus with 4 samples.

Results

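Peaks of Musashi-1 (Msi1) CLIP-seq on the RNA of the Musashi genes themselves, Msi1 and Msi2, are described here in mouse intestinal epithelial cells. The members are the peaks that overlap, on the gene's own strand, the Msi1 window (build mm9, chromosome 5, 115879500 to 115906000, plus strand) or the Msi2 window (chromosome 11, 88152500 to 88532500, minus strand). There were 18 such peaks, 4 on Msi1 and 14 on Msi2, among the 240811 peaks of 4 lists. Peaks on the opposite strand of the same windows served as background, and there were 9 of them.

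Msi1 and Msi2 are a pair of closely related RNA-binding proteins, each with tandem RNA-recognition motifs that prefer short UAG-containing stretches. They are best known for binding the untranslated 3' part of messenger RNAs and changing their translation, and both are studied as regulators of stem and progenitor cells, including those of the intestinal crypt. RNA-binding proteins of many families can bind transcripts of their own gene or of a paralogue. In CLIP-seq, RNA is fixed to bound protein with ultraviolet light, the protein is recovered with an antibody, and the RNA fragments held by it are sequenced.

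The libraries were 2 from wild-type (WT) mice without doxycycline, taken from isolated crypts, and 2 from TRE-Msi1 mice given doxycycline for 24 h, taken from total epithelial cells. TRE-Msi1 is a transgene from which doxycycline induces Msi1, and the labels used here do not say which promoter supplies the activator. The same Msi1 antibody was used in all of them, and the protocol speaks of separate mice. The WT lists held 4863 and 5578 peaks and the TRE-Msi1 lists 189594 and 40776 (replicates 1 and 2). No read numbers were given, so the sequencing depth of each list is unknown, and intervals below cover counting error only. The TRE-Msi1 replicate 1 list stood apart, with a median peak width of 40 bp against 74 to 75 bp in the other lists and 70.8% of its peaks on the plus strand against 50.9 to 51.5%. Genotype, doxycycline and the cells taken changed together and cannot be told apart.

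On Msi1, peaks were listed in both TRE-Msi1 libraries and in neither WT library. WT replicates 1 and 2 had 0 peaks each in the Msi1 window, and TRE-Msi1 replicates 1 and 2 had 2 each. The groups did not overlap in number. When windows as wide as the Msi1 window were laid end to end along the numbered and X chromosomes on each strand, 5.54% had more peaks in each TRE-Msi1 list than in either WT list. The narrower pattern of at least 1 peak in both TRE-Msi1 lists and none in either WT list was seen in 4.55% of windows, which include DNA that is not transcribed. Both shares pool the strands. They were not counted for plus-strand windows alone, the strand of Msi1 and of 70.8% of TRE-Msi1 replicate 1 peaks. On the log2(peaks + 1) scale the mean was 1.58 in TRE-Msi1 and 0 in WT libraries, with the same value in both libraries of each group. A two-sided exact permutation test over libraries gave p = 0.333 for this difference of 1.58, the smallest value that 2 against 2 libraries allow, and 0.444 after Benjamini-Hochberg adjustment over the 4 such tests made. In lists cut to an equal length of 4863 peaks, and also in the top 25% of each list, TRE-Msi1 replicate 1 had 0 Msi1 peaks and replicate 2 had 1, so the groups overlapped and the difference was 0.5.

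The WT lists are too short to show that Msi1 lacks peaks there. Taking 3 counts as the limit that a count of 0 allows, the share could be up to 6.17 Msi1 peaks per 10000 listed peaks in WT replicate 1 and up to 5.38 in WT replicate 2. The TRE-Msi1 lists had 0.105 per 10000 (95% exact Clopper-Pearson interval 0.0128 to 0.381) in replicate 1 and 0.490 (0.0594 to 1.77) in replicate 2, so both lie below those limits and no fold is given. A difference in the share of listed peaks was therefore not detectable at these list lengths. The mean share was 0.298 ± 0.272 per 10000 (SD, n = 2) in TRE-Msi1 libraries, and the exact permutation test against WT again gave p = 0.333 (adjusted 0.444).

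**Figure D1:**
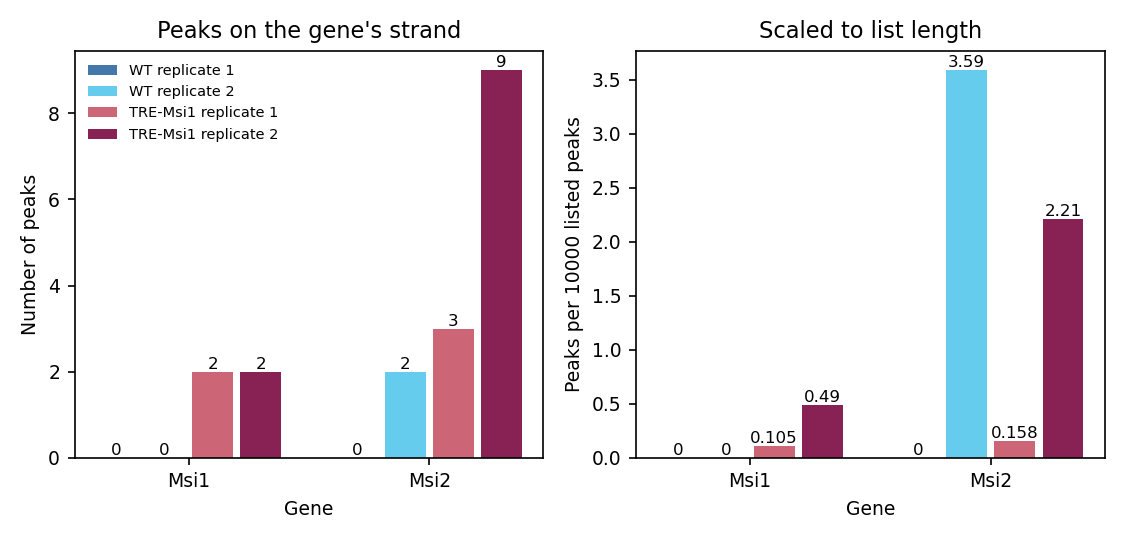
Peaks on the gene's strand in the Msi1 and Msi2 windows, one bar per library, as numbers (left) and per 10000 peaks of the same list (right), with the value printed on each bar. Msi1 had 2 peaks in each TRE-Msi1 library and 0 in each WT library, and Msi2 led in number in TRE-Msi1 replicate 2 (9) but in share of the list in WT replicate 2 (3.59).

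One Msi1 position was called in both TRE-Msi1 libraries. In TRE-Msi1 replicate 2 it lay at 115890549 to 115890623, with the authors' score of 28, and 634 of the 40776 peaks of that list (1.55%) scored at least as high. In TRE-Msi1 replicate 1 a peak at 115890521 to 115890560, with a score of 2.1, shared 12 bp with it. Of that list, 37.3% of peaks scored at least 2.1, so the position stood high in one list and at a middling rank in the other. Scores of the 2 lists have different formats and no stated unit, so they were ranked only within their own list.

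This overlap is read against how often it occurs over the whole lists. Of all TRE-Msi1 replicate 2 peaks, 5.67% overlapped a same-strand peak of replicate 1, and of the 634 that scored at least 28, 240 did (37.9%). The Msi1 peak is 1 of those 240. The 12 bp in common did not meet a reciprocal overlap of 50%. The nearest WT peak on the same strand was 49.0 kb away, outside the window.

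The other Msi1 peaks were found in 1 library each. TRE-Msi1 replicate 2 had a peak at 115880879 to 115880953 with a score of 7, a score reached or passed by 48.8% of its list. TRE-Msi1 replicate 1 had one at 115885496 to 115885535 with a score of 1.5, the lowest that list holds. These peaks were 4.54 kb apart and neither had a partner in the other library.

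All 4 Msi1 peaks lay nearer to the edge of the window where transcription enters than to its end. In the direction of transcription, their midpoints were 1.4 kb (TRE-Msi1 replicate 2), 6.0 kb (replicate 1), 11.0 kb (replicate 1) and 11.1 kb (replicate 2) from the edge of the 26.5 kb window. With the window divided into its first 5 kb, a middle and its last 5 kb, 1 peak fell in the first stretch, 3 in the middle and 0 in the last. The midpoint closest to the 3' side was still 15.4 kb from the end of the window. Peaks were not assigned to exons, introns or untranslated parts, since no mm9 annotation was used here. No mm9 genome was used either, so no sequence under a peak was read. The edges of both windows come from the rule that set the members and were not checked against an annotation. Whether RNA of the resident Msi1 gene or of the transgene gave these peaks cannot be told apart from the lists.

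**Figure D2:**
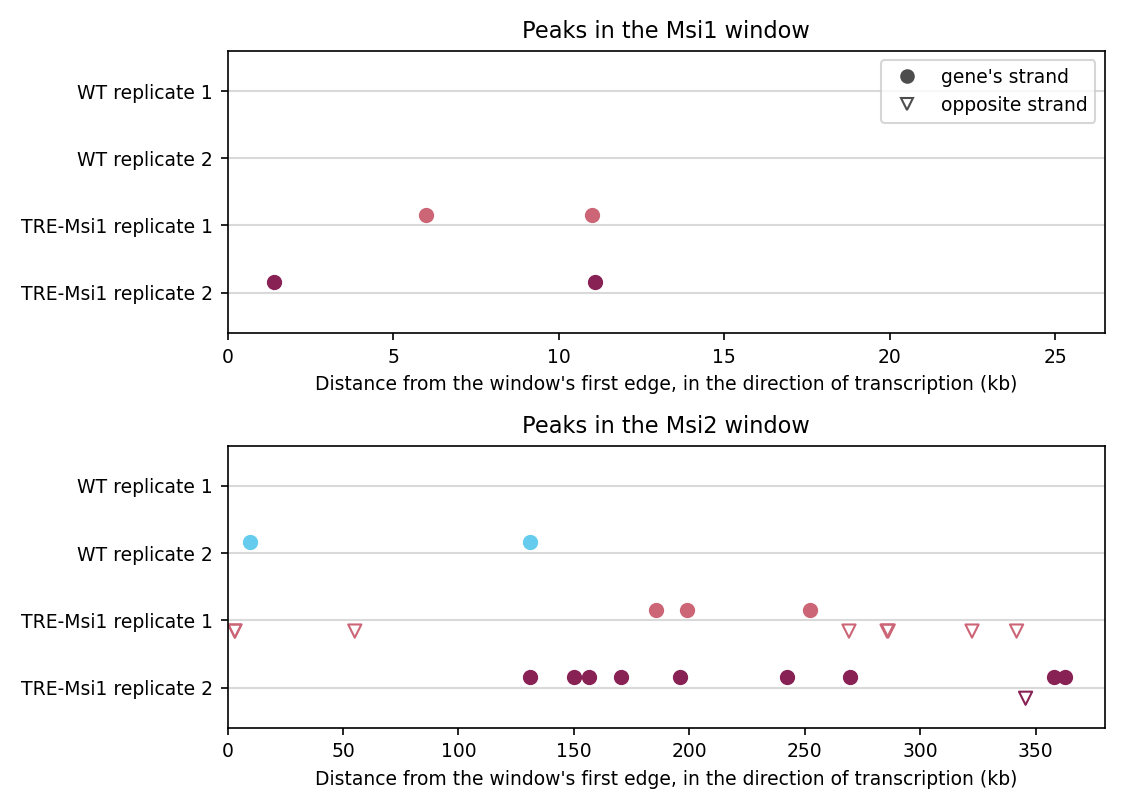
Peaks in the Msi1 window (top) and the Msi2 window (bottom) by library, plotted by the distance of the midpoint from the edge where transcription enters (kb). Filled circles are on the gene's strand and open triangles on the opposite strand. At about 11.0 kb, 1 Msi1 peak of TRE-Msi1 replicate 1 and 1 of replicate 2 overlap by 12 bp. At 131.0 kb, 1 Msi2 peak of WT replicate 2 and 1 of TRE-Msi1 replicate 2 have the same interval.

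The opposite strand of the Msi1 window held 0 peaks in each of the 4 libraries. In both TRE-Msi1 libraries 2 of 2 peaks were therefore on the gene's strand (100%, exact interval 15.8 to 100%), against 70.8% plus-strand peaks in the whole TRE-Msi1 replicate 1 list and 50.9% in that of replicate 2. Both shares lie inside the interval, so 2 peaks do not separate Msi1 from the strand balance of its list.

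How unusual 2 peaks are differed between the libraries. Of the windows as wide as that of Msi1, 47.4% had at least 1 peak in TRE-Msi1 replicate 1 and 21.4% at least 2. Among plus-strand windows alone these shares were 64.0% and 32.9%, so 2 peaks on Msi1 is near the background of that list. In TRE-Msi1 replicate 2, 10.0% of windows had at least 1 peak and 4.32% at least 2, and among windows with a peak in any of the 4 lists 8.42% had at least 2. In the WT lists only 1.63% and 2.41% of windows had a peak at all, so a window without one is the usual case there.

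Neighbouring windows gave a similar picture. Of the 10 windows of the same width and strand beside Msi1 (5 on each side), 8 had at least 2 peaks in TRE-Msi1 replicate 1, with a median of 3.5 and a range of 1 to 7. In TRE-Msi1 replicate 2, 1 of the 10 had at least 2, and the range was 0 to 2. The Msi1 count thus lay below the local median in replicate 1 and at the local maximum in replicate 2.

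On Msi2, the paralogue, peaks were listed in both TRE-Msi1 libraries and in 1 of the WT libraries. WT replicates 1 and 2 had 0 and 2 peaks on the gene's strand, and TRE-Msi1 replicates 1 and 2 had 3 and 9. Both TRE-Msi1 libraries had more than either WT library, an order also seen in 49.3% of windows as wide as that of Msi2, so it is common in these lists. The spread within each group was wide. A peak in both TRE-Msi1 lists and WT replicate 2 with none in WT replicate 1 was the pattern of 10.6% of windows as wide as that of Msi2. On the log2(peaks + 1) scale TRE-Msi1 libraries averaged 2.66 ± 0.935 (SD, n = 2), against 0.792 ± 1.12 for WT libraries (SD, n = 2), a difference of 1.87 with p = 0.333 by the two-sided exact permutation test (adjusted 0.444).

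The order changed when Msi2 peaks were set against the length of each list. Msi2 took 3.59 per 10000 listed peaks in WT replicate 2 (exact interval 0.434 to 12.9), 2.21 (1.01 to 4.19) in TRE-Msi1 replicate 2 and 0.158 (0.0326 to 0.462) in TRE-Msi1 replicate 1. WT replicate 1 had 0, which allows up to 6.17 by the limit of 3 counts (exact interval 0 to 7.58). The intervals of WT replicate 2 and TRE-Msi1 replicate 2 overlap, whereas that of TRE-Msi1 replicate 1 lies below the interval of TRE-Msi1 replicate 2 in the same group. Per 10000 listed peaks TRE-Msi1 libraries averaged 1.18 ± 1.45 (SD, n = 2) against 1.79 ± 2.54 for WT libraries (SD, n = 2), a difference of -0.61 that was smaller than the spread within either group (exact permutation p = 1, adjusted 1). Without WT replicate 2 this difference was 1.18 and without TRE-Msi1 replicate 1 it was 0.414, so its sign rested on single libraries. Both TRE-Msi1 lists were longer than the WT lists. TRE-Msi1 replicate 1, the longest, had 3 Msi2 peaks on the gene's strand and 11 on either strand. TRE-Msi1 replicate 2 had 9 and 10. The part of list length in these counts was not tested. In lists cut to 4863 peaks, WT replicate 2 kept its 2 Msi2 peaks and both TRE-Msi1 lists had 0. This turned the difference on the log2(peaks + 1) scale to -0.792. Of those 2 peaks, the one at 88523004 to 88523078 has its list's lowest score, 3. It stayed only because tied scores were ordered by chromosome name and position, so the size of this difference rests partly on that order. On the opposite strand, which serves as background, the difference on the log2(peaks + 1) scale was 2.08 (exact permutation p = 0.333). That is no smaller than the 1.87 on the gene's strand on the same scale. As plain counts, TRE-Msi1 replicates 1 and 2 had 8 and 1 opposite-strand peaks against 3 and 9 on the gene's strand. WT replicates 1 and 2 had 0 and 0 against 0 and 2.

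One Msi2 interval was identical in a WT and a TRE-Msi1 library. The peak at 88401483 to 88401557 was listed by both WT replicate 2 and TRE-Msi1 replicate 2, with a score of 6 in each. In the first list 53.0% of peaks and in the second 64.5% scored at least 6. Over the whole lists, 15.6% of WT replicate 2 peaks overlapped a peak of TRE-Msi1 replicate 2, and 119 of the 5578 (2.13%) had the very same interval there. The nearest same-strand peak of TRE-Msi1 replicate 1 was 54.6 kb from this position, and that of WT replicate 1 was 291 kb away.

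The second Msi2 peak of WT replicate 2 lay at 88523004 to 88523078, nearest of all 14 to the side where transcription starts. Its score of 3 was the lowest of that list, and the nearest peaks of the TRE-Msi1 libraries on that strand were 42.5 kb (replicate 1) and 42.0 kb (replicate 2) away. TRE-Msi1 replicate 1 had peaks at 88280043 to 88280082 (score 1.5), 88333334 to 88333373 (1.9) and 88346858 to 88346897 (2.1). At most 37.3% of that list scored as high as the best of them, and the first was at the list's minimum.

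The 9 Msi2 peaks of TRE-Msi1 replicate 2 had middling or low scores for that list. The highest, at 88290145 to 88290219, had a score of 7, which 48.8% of the list reached. Those at 88174297 to 88174371, 88375975 to 88376049 and 88401483 to 88401557 scored 6, and the one at 88169614 to 88169688 scored 5. The other 4, at 88262814 to 88262888, 88336535 to 88336609, 88361867 to 88361941 and 88382364 to 88382438, had the lowest score of the list, 4. No Msi2 peak of any library was in the top 25% of its list, whereas 1 Msi1 peak was, that with a score of 28.

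**Figure D3:**
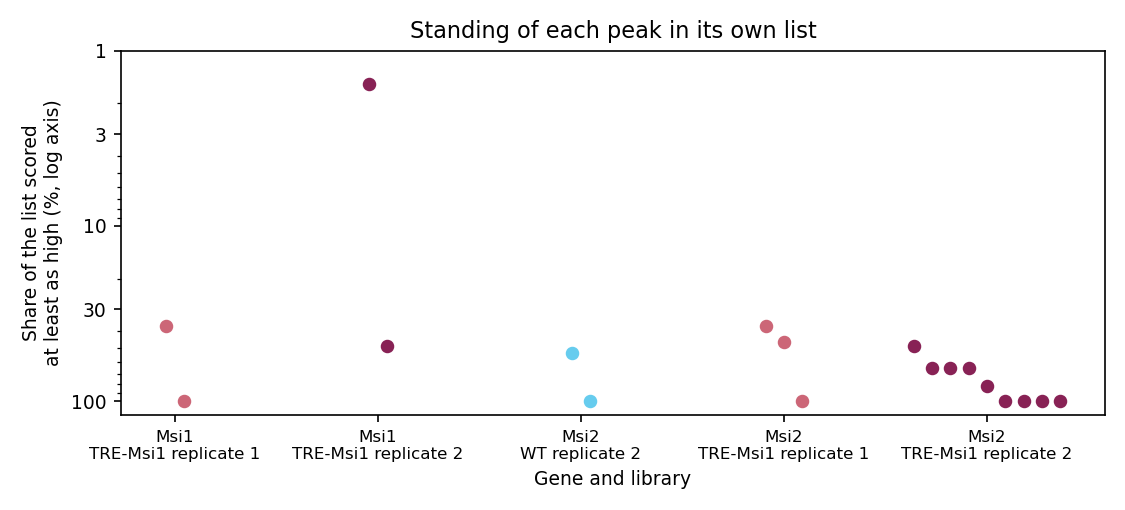
Standing of each peak on the gene's strand within its own list, as the share of that list scored at least as high (percent, log axis, higher standing upwards). One point is 1 peak. The Msi1 peak at 1.55% in TRE-Msi1 replicate 2 stands apart, and for every Msi2 peak at least 37.3% of the list scored as high.

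No Msi2 peak was shared by the TRE-Msi1 libraries. The closest pair, 88333334 to 88333373 in replicate 1 and 88336535 to 88336609 in replicate 2, was 3.16 kb apart, and the others were at least 10.1 kb from a peak of the other induced library. The number of shared positions stayed 0 when peaks with midpoints within 500 bp were counted. Over the whole TRE-Msi1 replicate 2 list 5.67% of peaks were shared, so 0 of 9 is not unusual for that list.

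Msi2 peaks were spread along the inside of the long window and absent from both of its ends. In TRE-Msi1 replicate 2 they covered a span of 232 kb, with gaps of 4.61 to 88.4 kb between neighbours (median 22.2 kb). In TRE-Msi1 replicate 1 the 3 peaks spanned 66.9 kb, and in WT replicate 2 the pair spanned 122 kb. All 14 fell in the middle stretch, with 0 in the first 5 kb and 0 in the last 5 kb. The peak closest to the 3' side was 17.2 kb from the end of the window (TRE-Msi1 replicate 2), and that closest to the start was 9.5 kb from it (WT replicate 2). The first 5 kb and the last 5 kb are a small part of this window of 380 kb, so few peaks would fall there if they were spread evenly. Per length, Msi1 had 7.55 peaks per 100 kb in both TRE-Msi1 libraries and Msi2 0.789 (replicate 1) and 2.37 (replicate 2), and 0.526 in WT replicate 2. The windows differ in how much of them is exon, so these densities do not compare the spliced transcripts.

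Peaks on the opposite strand of Msi2 were listed in the TRE-Msi1 libraries and in neither WT library. TRE-Msi1 replicate 2 had 9 peaks on the gene's strand and 1 on the other, a share of 90.0% (exact interval 55.5 to 99.7%), which lies above the 49.1% of its whole list on the minus strand. That list pools genes of both strands, and the strand share of other windows was not counted. The comparison therefore does not set Msi2 apart from other genes. WT replicate 2 had 2 and 0 (100%, 15.8 to 100%). TRE-Msi1 replicate 1 had 3 peaks on the gene's strand and 8 on the other, 27.3% (6.02 to 61.0%), against 29.2% minus-strand peaks in its whole list. In that library Msi2 peaks on the gene's strand were thus outnumbered by background and divided between strands much as all its peaks were. The intervals treat peaks as independent, those of the TRE-Msi1 libraries overlap, and the difference between the libraries was not tested.

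Against windows of the same width, the Msi2 count was ordinary or low in TRE-Msi1 replicate 1 and higher in the other libraries with peaks. In TRE-Msi1 replicate 1, 96.6% of all such windows had a peak and 89.6% at least 3, and 81.9% of those on the minus strand, with a median of 6, had at least 3. In TRE-Msi1 replicate 2, 54.6% of windows had a peak and 11.6% at least 9. In WT replicate 2, 25.4% had a peak and 8.31% at least 2, and in WT replicate 1 16.6% had a peak. Of the 10 windows beside Msi2, all 10 had at least 3 peaks in TRE-Msi1 replicate 1 (median 15), 3 had at least 9 in TRE-Msi1 replicate 2 (median 1.5) and 2 had at least 2 in WT replicate 2 (median 0).

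**Figure D4:**
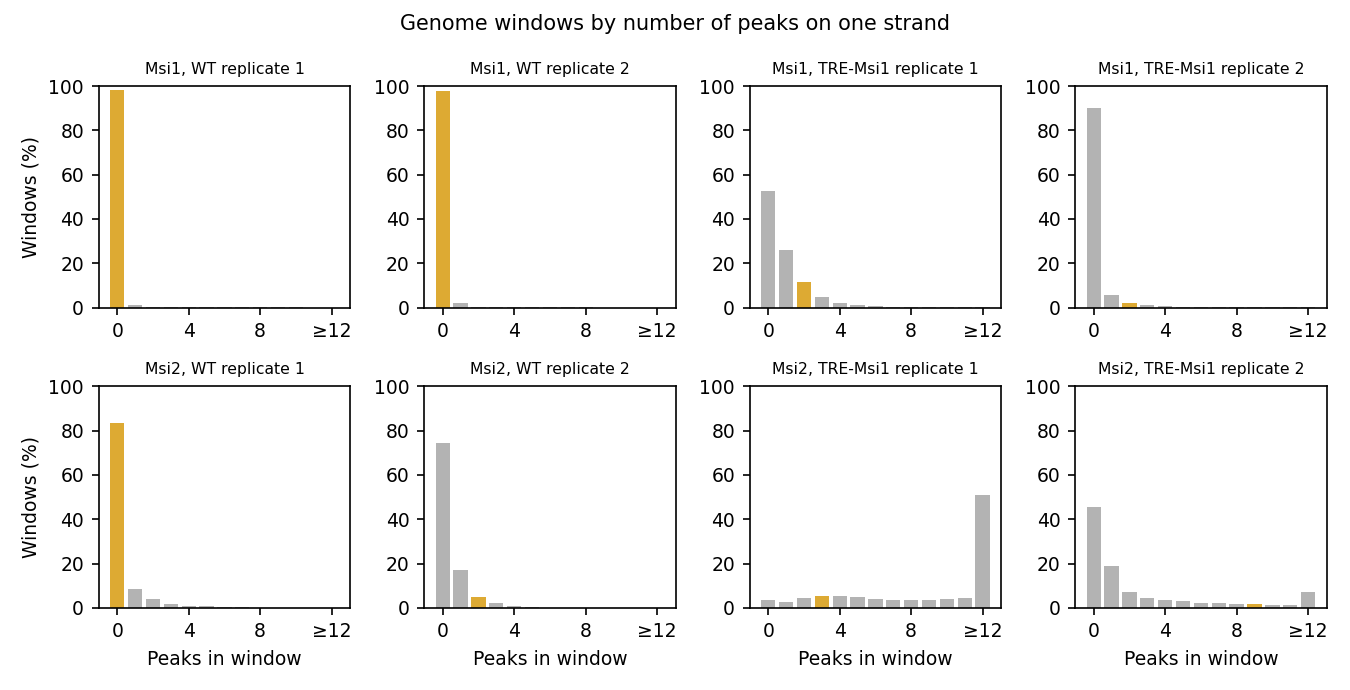
Share of genome windows (percent) by the number of peaks on one strand, for windows as wide as that of Msi1 (top) and Msi2 (bottom), 1 panel per library; the last bar holds 12 or more. The gold bar marks the number found on the gene. Msi1 sits at 0 in both WT panels and at 2 in both TRE-Msi1 panels, a count that 21.4% of windows reach in TRE-Msi1 replicate 1 and 4.32% in replicate 2.

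Other RNAs of the same genomic stretches were not separated from the Musashi genes: RefSeq's table for GRCm38 places 4930401G09Rik and A930005G22Rik, both long noncoding RNAs, within or across Msi1, and Mir378b (a microRNA), Gm11510 (a pseudogene) and 0610039H22Rik (a long noncoding RNA) within or across Msi2. That table was used for names only, and whether a peak belongs to one of them cannot be told apart here.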

How the data were processed

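Msi1 CLIP-seq was listed for 4 libraries, 2 per group, with groups and replicate numbers from the sample titles. Per the submitters' processing notes, Bowtie, HOMER and build mm9 were used; their versions and settings were not stated. The authors deposited 1 peak list per library, with a score of unstated unit: 0 throughout in WT replicate 1, whole numbers from 3 in WT replicate 2 and from 4 in TRE-Msi1 replicate 2, 1 decimal from 1.5 in TRE-Msi1 replicate 1. Scores were used only within a list. For cuts by rank, tied scores were ordered by chromosome name and position, and WT replicate 1 was taken in its listed order. Per the labels' protocols, cells received 2 pulses of 265 nm light at 400 mJ per cm2 and membrane near 50 kD was cut out.

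Peaks overlapping a gene window by at least 1 bp were counted per strand; overlaps between lists were on the same strand. All peaks were named where a list had 10 or fewer in a window. Numbers were compared with exact permutation tests on log2(peaks + 1), where 1 is the pseudocount, and per 10000 listed peaks. Background windows were tiled up to the highest peak end of each chromosome. Counting was tested on the deposited lists with the windows emptied and peaks planted in them at random positions, which checks the interval count only. Members and tests were chosen with earlier results of these data known. Alternatives are given at the end. Positions are 1-based. Python 3.11.15, numpy, pandas, scipy and bedtools 2.31.1 were used.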

Additional observations from a re-analysis of the deposited data

Results flagged for a closer look

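Peaks on the opposite strand of the Msi2 window, which lie outside the counts for the gene and served as their background, numbered 8 for TRE-Msi1 replicate 1 and 1 for replicate 2, above the 0 of both WT libraries. Per 10000 listed peaks this was 0.422 and 0.245, below the 6.17 and 5.38 that a count of 0 allows in the WT lists. The 8 peaks of replicate 1 scored 1.5 to 2.7, and those at 88529270 to 88529309 and 88529384 to 88529423 lay 3.2 and 3.1 kb from the edge of the window where Msi2 transcription enters. The strand balance of that list (70.8% plus) moves with this count, and its part was not tested.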

How the results depend on the processing

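With 2 libraries per group no test could pass a threshold of 0.05, so only directions could change. Differences in number below are differences of means on the log2(peaks + 1) scale. On the opposite strand, the Msi1 differences were 0 in number and 0 per 10000 listed peaks, and the Msi2 differences were 2.08 in number and 0.334 per 10000. In the top 25% of each list the Msi2 differences were 0 on both scales, with 0 peaks left on the gene's strand in every list. That of Msi1 was 0.5 in number. The scores of WT replicate 1 are all 0, so its top 25% is the first part of the list as given and no ranking by score. With lists of equal length (4863 peaks, added after seeing the data) Msi1 kept 1 peak, in TRE-Msi1 replicate 2, and Msi2 only the 2 of WT replicate 2, a difference of -0.792. Of these 2, 1 was kept only through the order of tied scores. Leaving out 1 library in turn gave 1.58 to 1.58 for the Msi1 number, 0.105 to 0.49 for Msi1 per 10000, 1.08 to 2.66 for the Msi2 number and -2.4 to 1.18 for Msi2 per 10000, where 0.414 was the value without TRE-Msi1 replicate 1; with 1 library in a group these are values with no test. With a first and last stretch of 10 kb, Msi1 in TRE-Msi1 replicate 1 had 1 peak in the first and 1 in the middle stretch, and Msi2 in WT replicate 2 likewise 1 and 1. With a reciprocal overlap of 50%, 0 Msi1 peaks were shared between TRE-Msi1 libraries. In the top 25% of TRE-Msi1 replicate 1, the Msi2 window held only the opposite-strand peak at 88190653 to 88190692 (score 2.7). The 0% on the gene's strand there rests on that 1 peak. Among windows of the gene's own strand (added after seeing the data), 32.9% reached the Msi1 count of TRE-Msi1 replicate 1, against 21.4% on both strands. The samples share only a replicate number: over 102241 windows the same-numbered deviations correlated at Pearson's r = 0.0465. With the replicate block the 4 differences were 1.58, 0.298, 1.87 and -0.61, with exact sign-flip p of 0.5, 0.5, 0.5 and 1, where 0.5 is the smallest possible.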
